A study of Mus musculus with 74 samples.

Results

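BCL6 is a zinc finger transcription factor that represses its target genes by recruiting corepressor complexes that carry histone deacetylases. Acetylation of lysine 27 on histone H3 (H3K27ac) marks active promoters and enhancers, and its level at a distal site is commonly read as a sign of enhancer activity. The regions described here are the H3K27ac regions of mouse quadriceps that lie more than 1000 bp from an annotated transcription start and overlap a BCL6 peak by at least 1 bp. There were 2673 of them, 4.3% of the 62141 distal regions and 3.62% of all 73866 merged regions. Their nearest genes numbered 2099, and 2654 of the 10925 BCL6 peaks (24.3%) lay in them.

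All mice were C57BL/6. Knockouts carried AEC-Esr Cre and Bcl6 fl/fl alleles, controls carried Bcl6 fl/fl alleles without Cre, and both received tamoxifen (TMX). The labels name the Cre but not the cells that express it, and give no age. Because the controls lack Cre, loss of Bcl6 and activated Cre cannot be told apart. The acute series had 3 knockout and 3 Cre-negative animals, and the chronic series had 3 and 3 others. The file headers give 1 week for the acute series and 12 weeks for the chronic series. A further 3 knockouts and 3 Cre-negative mice, here called the window series, were measured in 1000 bp windows centred on BCL6 peaks. Poly(A) RNA came from 5 knockout and 4 Cre-negative mice, and 6 of these carry the animal numbers of the window series. BCL6 was mapped in 1 untreated wild-type library, so its peaks have no replicate check.

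The merged regions came from peak calls in the acute libraries, so acute values helped to choose them, whereas chronic and window values did not. Signal is the number of tags in a region scaled to 10000000 tags per library, and library totals ran from 7794885 to 23016334 tags. The library with the lowest total, chronic Cre-negative Ctr_1801 (libraries are named by animal as in the labels, Ctr for Cre-negative and mKO or imKO for knockout), had a mean correlation of 0.733 with the other 5 chronic libraries over the bound distal regions, against 0.798 to 0.848 for the other 11 libraries. Whole muscle was used, so fewer cells with a mark and less of the mark per cell cannot be told apart. Of 10 marker lists for muscle and other cell types, 30 genes had a promoter region, and 0 of these were called raised or lowered (limma). The single adipocyte region had no fitted value, so it was not tested. The single erythroid region had 10.2 to 15.9 in acute Cre-negative and 1.4 to 5.5 in acute knockout libraries, but 0.0 to 13.4 and 5.7 to 8.7 in the chronic ones, and its part in the results was not tested. Muscle fibre marker promoters, present for 7 of 12 markers, had a mean signal of 78.9 to 104.0 per library. A region was found for 3 of 8 endothelial, 3 of 8 fibroblast and 0 of 6 lymphoid markers. The muscle genes Ckm and Myh4 had none, so a missing region does not show that a cell type was absent. In the RNA libraries Bcl6 itself was 10.21, 10.41, 10.36 and 10.38 on the authors' log2 scale in the Cre-negative mice and 10.09, 10.22, 9.99, 10.25 and 9.98 in the knockouts. The difference was -0.23 ± 0.0561 (SE, limma adjusted p = 0.0129), and the groups overlapped. Reads from any undeleted part of the gene would count towards these values. Which part is deleted was not examined, and the reason for the size of the difference was not tested.

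Of the bound distal regions 1566 (58.6%) were intronic and 968 (36.2%) intergenic, close to the 59.5% and 35.6% of the 59468 distal regions without a BCL6 peak. The median distance to a start was 25756 bp, with a range from 1006 bp up. Repeats covered 14.4% of bound and 20.5% of unbound distal regions by the deposited annotation. In the acute peak calls, 50.7% of bound distal regions had been found in both genotypes, 28.2% in knockout only and 21.1% in control only, against 33.6%, 33.6% and 32.8% of the unbound ones. The best BCL6 peak of a region had a median score of 24.5 and a highest score of 657.8, on the authors' scale, which is not named.

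Sequence could be read for few of these peaks, because only the stretch next to an annotated RefSeq start (GRCm38.p6, the mm10 assembly) was held. For 27 BCL6 peaks in these regions at least 30 bases lay in the 250 bases upstream of such a start, mostly of a predicted gene that is not the nearest gene in the deposited annotation. Those regions are distal only with respect to the starts of the deposited annotation. The sequence TTCNNNGAA, which reads the same on both strands and is a core shared by BCL6 and STAT sites, was present in 2 of 29 stretches (6.9%) and in 8.3% of 32851 promoter windows of all genes. Those windows are longer than the stretches and also hold the 50 bases after the start, so the shares are not for equal lengths. The following 3 stretches are both that hold the sequence, with it in capitals, and the single one in a raised region. They are given on the strand of the predicted gene, and all 3 were chosen after their values were seen.
Gm52253 (nearest gene Nrip1), chr16:76432561-76432745, plus strand: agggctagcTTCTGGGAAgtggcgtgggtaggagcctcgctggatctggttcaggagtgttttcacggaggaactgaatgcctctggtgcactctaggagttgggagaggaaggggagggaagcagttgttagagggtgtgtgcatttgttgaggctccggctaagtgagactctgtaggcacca
Gm39260 (nearest gene Mir7077), chr8:117423260-117423437, minus strand: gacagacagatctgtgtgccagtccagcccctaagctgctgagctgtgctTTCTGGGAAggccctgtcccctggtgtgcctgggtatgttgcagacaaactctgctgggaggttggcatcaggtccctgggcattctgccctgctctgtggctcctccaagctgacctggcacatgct
Gm51695 (nearest gene Ctdspl), chr9:118887272-118887472, minus strand: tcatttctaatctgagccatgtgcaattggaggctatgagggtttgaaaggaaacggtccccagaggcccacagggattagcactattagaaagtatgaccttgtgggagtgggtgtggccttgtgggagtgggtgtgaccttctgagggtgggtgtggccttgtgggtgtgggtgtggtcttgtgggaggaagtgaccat
The region near Nrip1, a nuclear receptor corepressor gene, differed by 0.45 in the acute and 0.10 in the chronic series on the log2 scale and was not called over both (limma adjusted p = 0.61). The region near Mir7077 was not called either (limma adjusted p = 0.797). The region near Ctdspl, a phosphatase gene, was raised by 1.48 (limma adjusted p = 0.00609), although its BCL6 window in the window series differed by 0.29 (limma adjusted p = 0.313).

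As a group, the bound distal regions carried more H3K27ac in knockout muscle in both series. The median log2(signal + 1) over the regions was 4.529, 4.695 and 4.673 in the acute Cre-negative libraries and 4.858, 4.705 and 4.805 in the acute knockouts. It was 4.68, 4.512 and 4.638 in the chronic Cre-negative libraries and 4.849, 4.864 and 4.818 in the chronic knockouts. The knockouts lay above the Cre-negative libraries in each series without overlap, narrowly so in the acute one. The median difference per region was 0.122 in the acute series, where it was 0.005 over all regions, and 0.189 in the chronic series, where it was 0.037 over all. Without Ctr_1801, the library of lowest depth, the chronic median was 0.111, and without Ctr_6345 the acute median was 0.076.

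**Figure D1:**
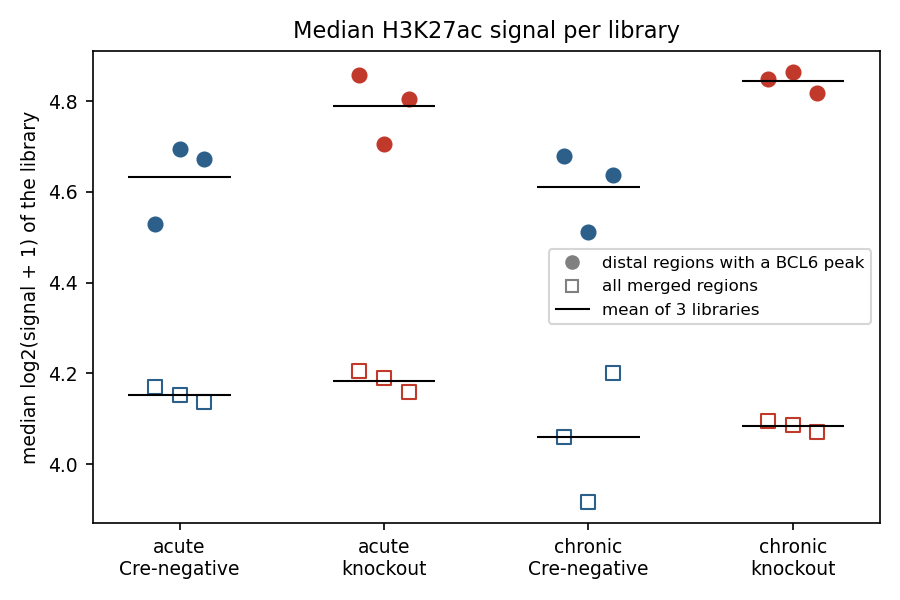
Median log2(signal + 1) of each of the 12 libraries over the 2673 distal regions with a BCL6 peak (filled circles) and over all 73866 merged regions (open squares), in blue for Cre-negative and red for knockout, with lines at group means. The filled circles lie between 4.512 and 4.695 in Cre-negative and between 4.705 and 4.864 in knockout libraries, and the open squares of the genotypes overlap in both series.

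The fit over both series, with series as a covariate, tested 2645 of the 2673 regions, since 28 had a mean signal below 5. It called 128 of them raised in knockouts and 6 lowered. Of all 70440 regions tested it called 0.481% raised and 0.0752% lowered, against 4.84% and 0.227% of the bound distal regions. Distal regions without a peak were raised in 184 of 56170 cases (0.328%), and bound promoter regions in 9 of 798 (1.13%). The median difference was 0.15 in bound distal, 0.02 in unbound distal and 0.04 in bound promoter regions. Just inside the distance limit, 57 regions 1000 to 1500 bp from a start had a median of 0.09, and just outside it 103 bound regions at 500 to 1000 bp had one of 0.08. The 128 raised regions had a median signal of 13.2 in Cre-negative and 35.2 in knockout libraries, and 106 of them had every knockout above every Cre-negative library within each series. Among all regions tested 1.15% were separated upwards in this way, and among bound distal regions not called 69 of 2511 (2.75%). The 106 were counted within regions called on these same libraries. Of the 128, 23 had a Cre-negative mean below the minimum of 5, so that they passed the filter only through the knockouts. Over all 128, differences ran from 0.57 to 3.98 with a median of 1.42. With 1 library left out the raised count ranged from 79, without imKO_1802, to 161, without Ctr_1801, and was 83 without imKO_1803. Without a variance trend it was 59, and at a mean signal of at least 20 it was 84. It was 107 with a pseudocount of 0.5, 178 with edgeR and 185 with DESeq2. Without Ctr_1801, 127 of the 128 were still called.

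Taken separately, the acute series called 23 of 2648 tested regions raised and 1 lowered, where 0.0937% and 0.0042% of all regions tested were called. The chronic series called 43 of 2614 raised and 2 lowered, where 0.166% and 0.0118% were called. These counts rested on single libraries: without imKO_6349 or imKO_6346 the acute raised count was 3 or 5, and without Ctr_6366 it was 15. The chronic raised count was 0 without imKO_1794 or imKO_1802, 3 without imKO_1803 and 121 without Ctr_1801. The acute lowered count was 3 without Ctr_6345 and 0 without any of the other libraries but imKO_6348, and the chronic one was 5 without Ctr_1801 and 0 without any other. Without a variance trend both raised counts were 0. The series shared 13 raised regions, 56.5% of the acute and 30.2% of the chronic list. All 23 regions raised in the acute series had a positive chronic difference, and 41 of the 42 raised in the chronic series and tested in the acute one had a positive acute difference. Of all bound distal regions tested, 67.3% had a positive chronic and 64% a positive acute difference. Across 2601 regions the differences of the series had a Pearson correlation of 0.48 and a Spearman correlation of 0.36, and the libraries of the series were separate. Across 53147 unbound distal regions the Pearson correlation was 0.14. Median signal was 26.2 in bound and 14.6 in unbound distal regions tested over both series. The correlations were not compared at equal signal. Between the series, 0 bound distal regions and 0% of all regions differed (limma, interaction), with 211 of the bound distal regions (7.98%, against 5.09% of all regions) at an unadjusted p under 0.05, and edgeR, DESeq2 and limma without Ctr_1801 each called 1.

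The share of raised regions rose with the BCL6 peak score. In the lowest band of scores, 11 to 18.4, 8 of 740 tested regions (1.08%) were raised. In the next bands the counts were 12 of 584 (2.05%) and 32 of 689 (4.64%), and among scores from 44.1 to 657.8 they were 76 of 632 (12%). Median differences over these bands went from 0.06 to 0.24 in the acute and from 0.11 to 0.36 in the chronic series. The raised regions had a median score of 63.1, and those not called 24.5. Across regions the Spearman correlation of score and difference was 0.22 (n = 2645). Not every high score went with a raised mark. Of the 6 regions with the highest scores, those near Usp46, Arid3b and Mrps35 were raised and those near Zfp292, Prickle1 and Ptpn1 were not called, though Prickle1 passed under 4 alternatives. The 3 raised ones, Prickle1 and Ptpn1 had been found in acute knockouts only, and Zfp292 in both genotypes.

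**Figure D2:**
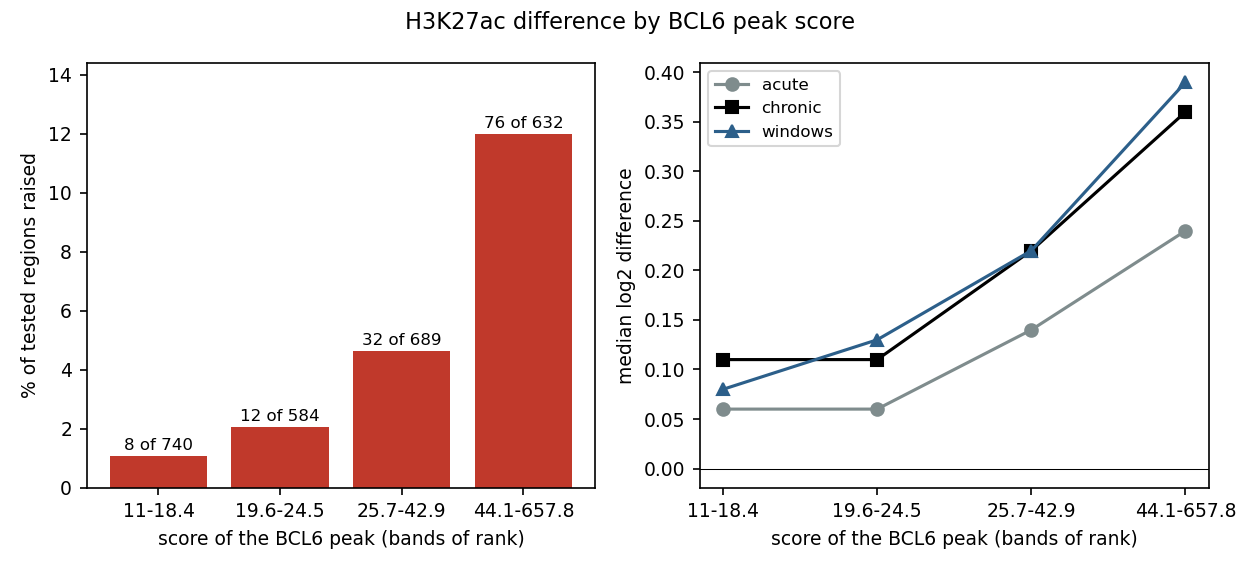
Share of tested distal regions with a BCL6 peak that were raised over both series (left, bars in percent with counts) and median log2 difference in the acute, chronic and window series (right), by band of BCL6 peak score. The share goes from 1.08% to 12%, and the highest band has the largest median in all 3 series.

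Distance to a start showed little pattern, with 16 of 313 regions (5.11%) raised at 1 to 5 kb and 16 of 353 (4.53%) beyond 100 kb. Intronic and intergenic regions were raised in 72 of 1544 (4.66%) and 44 of 962 (4.57%) cases. Regions called in acute knockout only were raised in 61 of 733 cases (8.32%), those called in both genotypes in 59 of 1355 (4.35%) and those called in control only in 8 of 557 (1.44%). In the chronic series, which did not choose the regions, these sets had medians of 0.29, 0.17 and 0.12. Low control signal was common among raised regions: 47 of 128 (36.7%) had a mean Cre-negative signal under 10, against 329 of 2511 (13.1%) of those not called. Control signal is part of the difference that decides the call, so this is a description.

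Among raised regions with a mean signal of at least 20 and no overlap in either series, the 5 with the largest difference were near Vps8, Zfp777, Rbm5, Prkar1a and Crim1. Vps8 encodes a subunit of the CORVET endosome tethering complex, and the region lies in intron 21 of 46 (chr16:21498854-21499552, mm10). Its signal was 20.4, 22 and 28.1 in acute Cre-negative and 105.7, 67.4 and 96.8 in acute knockout mice, and 6.7, 18 and 9.1 against 94.4, 98.7 and 86.7 in the chronic series. Every knockout was above every control, by 2.46 ± 0.224 on the log2(signal + 1) scale (SE, limma adjusted p = 3.69e-07).

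The region near Zfp777, a zinc finger gene, lies on a B1 repeat in intron 5 of 5 (chr6:48027253-48027753). Its signal was 13.6, 5.8 and 7.9 in acute Cre-negative and 49.7, 27.4 and 35.1 in acute knockout libraries, and 4.5, 2.6 and 10.9 against 39.8, 45.8 and 46.2 in the chronic series. It had been found in acute knockouts only, and the knockouts were higher throughout (2.41 ± 0.29, SE, limma adjusted p = 2.61e-05). The region 3.5 kb upstream of Rbm5, a splicing regulator, lies on a SINE repeat and in the last intron of another transcript (chr9:107774256-107774756), and it had 10.2, 8.1 and 20.2 in acute Cre-negative and 60.8, 35.3 and 40.9 in acute knockout libraries, and 17.2, 2.6 and 13.5 against 46.9, 69.5 and 56.3 in the chronic series. It too had been found in acute knockouts only, and its difference was 2.19 ± 0.308 (SE, limma adjusted p = 0.000177). For the Zfp777 and Rbm5 regions, acute knockout libraries thus served both to choose the region and, with the chronic ones, to test it.

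Prkar1a encodes a regulatory subunit of protein kinase A, and its region lies in intron 2 of 10 (chr11:109655473-109656245). Acute signal was 5.1, 17.9 and 14.4 in Cre-negative and 38.6, 25.9 and 37.5 in knockout mice, and chronic signal was 12.7, 6.4 and 6.5 against 55.6, 50.7 and 52.5. The difference was 2.03 ± 0.276 (SE, limma adjusted p = 0.000109). Crim1 encodes a membrane protein that binds bone morphogenetic proteins, and its region in intron 4 of 16 (chr17:78295601-78296101) was raised by 1.86 ± 0.232 (SE, limma adjusted p = 3.97e-05). The acute peak calls had found it in controls only, and the Vps8 and Prkar1a regions in both genotypes. All 5 were raised under every alternative of the fit that was run.

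The largest difference of all was in intron 4 of 8 of Usp46, a deubiquitinase gene, at the BCL6 peak with the highest score in these regions, 657.8 (chr5:74020285-74020785). Its signal was 0.8, 0.6 and 0.0 in acute Cre-negative and 29.1, 14.1 and 23.1 in acute knockout libraries, and 1.5, 2.6 and 0.0 against 33.8, 33.6 and 29.1 in the chronic series. The mark was near the limit of detection in controls, so the difference depends on the pseudocount: it was 3.98 with 1, 4.54 with 0.5 and 2.42 with 5. The acute peak calls found this region in knockouts only, and it passed the filter on mean signal only through the knockouts, so its difference is given as a description. The region in intron 3 of 9 of Vdr, the vitamin D receptor gene (chr15:97878639-97879139), was alike in this: 0.0, 2.9 and 2.2 against 23.8, 19.6 and 24.6 in the acute series and 0.8, 1.3 and 0.9 against 37.1, 37.0 and 12.7 in the chronic one. It too was found in knockouts only and passed the filter through them. Usp46 and Vdr come from a list of genes named in earlier work on these data, so they are not independent of it.

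**Figure D3:**
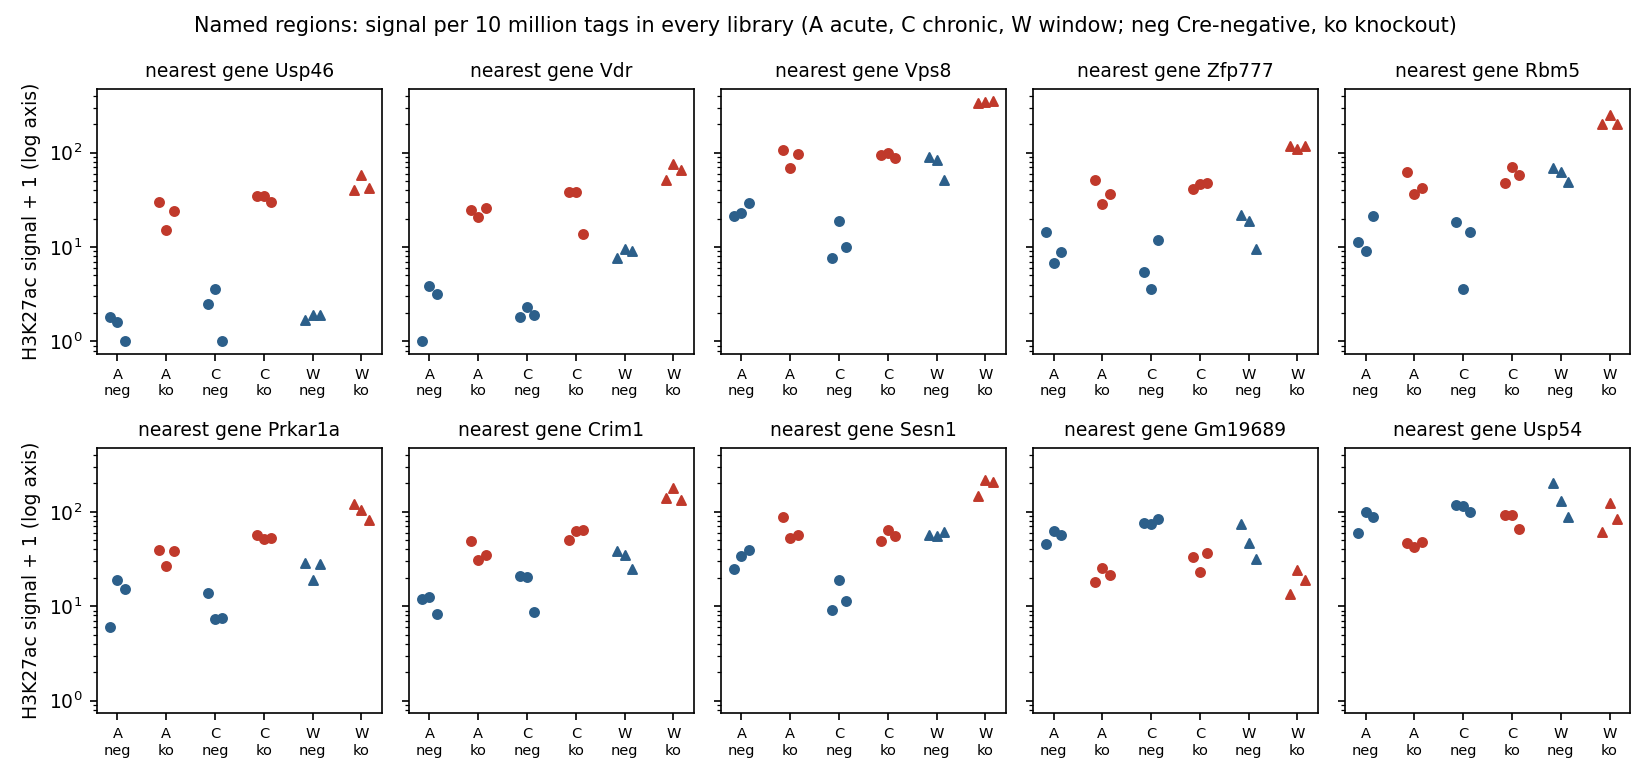
H3K27ac signal plus 1 (log axis) in every library for 10 named regions, in blue for Cre-negative and red for knockout, with circles for region signal in the acute (A) and chronic (C) series and triangles for signal in 1000 bp windows (W). In the first 8 panels all knockouts lie above all Cre-negative libraries of their series, at Gm19689 all lie below, and at Usp54 the window libraries overlap.

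Lowered regions were few, and 4 of the 6 had every knockout below every control in both series, where 0.497% of all regions tested did. Among bound distal regions not called, 9 of 2511 (0.358%) did. The 4 were counted within regions called on these same libraries. The region 50.8 kb upstream of the predicted gene Gm19689, on a LINE repeat (chr17:83128533-83129435), had 44.2, 61.4 and 55.5 in acute Cre-negative and 16.9, 24.3 and 20.2 in acute knockout libraries, and 74.6, 73.1 and 82.1 against 32.2, 22.1 and 36.0 in the chronic series. It differed by -1.35 ± 0.169 (SE, limma adjusted p = 3.97e-05), kept its call under every alternative run, and was lower in the window series as well (-1.38, limma adjusted p = 0.00446). The region in intron 3 of 20 of Usp54, a deubiquitinase-like gene, differed by -0.62 (limma adjusted p = 0.0321) and lost its call without a variance trend (limma adjusted p = 0.261). It was also lost without any of 7 libraries, that is all but Ctr_6345, Ctr_1801, Ctr_7362, imKO_1794 and imKO_1802 (limma adjusted p up to 0.124). The regions near Sorl1, Mir8096 and 1700025C18Rik differed by -1.61, -0.77 and -1.19 (limma adjusted p = 0.0157, 0.0169 and 0.0439). Sorl1 lost its call without Ctr_7362, imKO_1794 or imKO_1802 (limma adjusted p up to 0.0575), and Mir8096 without Ctr_6366, imKO_1802 or imKO_1803 (up to 0.0687). With 1 library left out, 1700025C18Rik kept its call only without Ctr_6345, imKO_6348 or Ctr_1801 (up to 0.137 otherwise). Without a variance trend Sorl1, Mir8096 and 1700025C18Rik each lost their call (limma adjusted p = 0.154, 0.176 and 0.0687). 1700025C18Rik also lost it with a pseudocount of 0.5 (limma adjusted p = 0.0509). The last of the 6, near Igf2bp3, differed by -1.25 (limma adjusted p = 0.0455), and it was named after its value was seen. The lowered count was 2 without Ctr_6366 or imKO_1802, and 3 without Ctr_1795, imKO_1794 or imKO_1803.

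Regions called within 1 series added few names. In the acute series regions near Tgfb3 (2.01, limma adjusted p = 0.00595), a growth factor of the transforming growth factor family, Gmpr (1.96, limma adjusted p = 0.00177) and Pdp2 (1.89, limma adjusted p = 0.00418), a pyruvate dehydrogenase phosphatase, were raised. All 3 had entered the region set through the acute knockout libraries only, so the same libraries chose and tested them. The region near Gmpr, a gene of purine salvage, lies 54.7 kb from the start of that gene. It had 10.2, 7.5 and 18 against 46.0, 47.8 and 45.2 in the acute series but 20.1, 23.1 and 14.8 against 22.4, 20.4 and 24.0 in the chronic one. The test of the difference between series did not pass for it (-1.74, limma adjusted p = 0.938). In the chronic series the region near Pipox, an oxidase gene, was raised by 2.63 (limma adjusted p = 0.00115), with 8.2, 10.3 and 8.3 against 60.0, 58.5 and 61.4, and in the acute series it had 15.3, 14.5 and 23.1 against 29.6, 38.4 and 32.2.

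Some raised regions lay in groups. With gaps of up to 200 kb, 33 of the 128 fell into 15 loci. The largest held 5 raised of 7 bound distal regions over 308.1 kb around Stc2, which encodes a secreted glycoprotein, and Bod1 (chr11:31381571-31689655), with differences from 0.92 to 3.07. Pairs of raised regions were also found at Sesn1, Cradd, Tgfb3, Mettl8, Samd7, Camta1, Ick, Ctdspl, Spns3, Ctnnbl1 and Chrna9. Unbound distal regions near a raised one had higher values too: 17 of 125 (13.6%) at 2 to 10 kb were raised, with a median of 0.48, against 138 of 54191 (0.255%) with a median of 0.02 beyond 200 kb or on other chromosomes. These values come from the same libraries as the calls they are set beside.

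The window series measured the same BCL6 peaks in other animals. Its windows on peaks of these regions were raised in 623 of 2650 cases and lowered in 46, where 16.7% of all windows tested were raised and 1.44% lowered. This series depended on scaling: the knockout libraries had 7.45% to 8.13% of their tags in windows and the Cre-negative ones 6.39% to 6.97%. Quantile normalization moved the median of all windows from 0.137 to -0.066 and TMM scaling to -0.018. The raised and lowered counts for these regions were then 373 and 179 with quantile normalization and 427 and 127 with TMM scaling, so raised windows made up 93.1% of the calls as deposited, 67.6% and 77.1%. With quantile normalization 14.1% of these windows were raised and 6.75% lowered, against 9.58% and 5.75% of all windows. With TMM scaling the shares were 16.1% and 4.79%, against 11% and 3.96% of all windows. Relative to the median of all windows, the median of these windows was 0.193 against 0.137 as deposited, -0.011 against -0.066 with quantile normalization and 0.036 against -0.018 with TMM scaling. Without mKO_1900 the raised count was 414, and the lowered count was 18 without Ctr_1899 and 24 without mKO_1907.

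At the peaks of the 128 raised regions, 121 windows were raised (94.5%) and 0 lowered, with 128 of 128 differences positive and a median of 1.39 (limma). These 128 include the 23 regions that passed the filter only through the knockouts, and no count was made without them. Under quantile normalization 114 of these windows were raised, under TMM scaling 116, and with edgeR 115. At peaks of regions not called, 493 of 2483 windows (19.9%) were raised and 1703 (68.6%) had a positive difference, with a median of 0.17. At the 6 lowered regions 2 windows were lowered and 0 raised. The Vps8 window had 88.6, 81.9 and 50.1 in Cre-negative and 334.6, 341.5 and 350.6 in knockout mice, and the Usp46 window 0.7, 0.9 and 0.9 against 39.0, 57.2 and 41.0. At both, the knockouts lay far above the controls. Across 2643 regions the differences over both series and in windows had a Pearson correlation of 0.73.

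**Figure D4:**
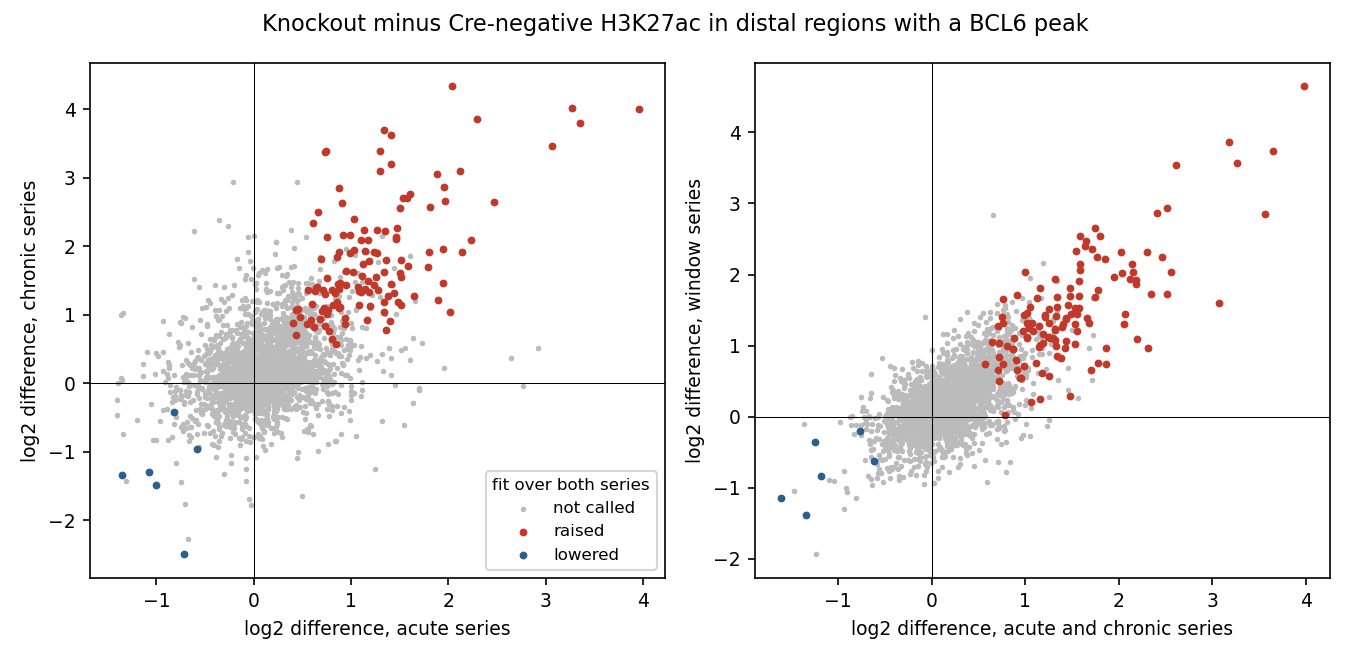
Log2 difference, knockout minus Cre-negative, of each distal region with a BCL6 peak in the acute against the chronic series (left) and over both series against the window at its peak in the window series (right), coloured by the call over both series. The raised regions lie above 0 in the window series in 128 of 128 cases, and the 6 lowered ones below 0.

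RNA of the nearest genes was measured in a separate set of libraries. Among the tested of the 2099 nearest genes, 187 (10.4%) were higher and 302 (16.8%) lower in knockout muscle, where 4.94% of all genes tested were higher and 7.55% lower. No share is given for genes nearest to unbound distal regions, so these shares are not set against the most similar genes. Of 98 tested genes nearest to a raised region, 46 were higher (46.9%) and 2 lower (2.04%). Genes near the 23 raised regions that passed the filter only through the knockouts were included and not counted apart. Genes with very low RNA values were also among the 46, such as Samd7, with means of 1.42 in Cre-negative and 1.45 in knockout mice. Of 1717 genes nearest to a region not called, 149 were higher (8.68%) and 299 lower (17.4%). The share of higher genes was 18 of 31 where a raised region lay within 10 kb, 25 of 49 at 10 to 50 kb and 8 of 25 beyond 50 kb. The RNA differences were small on the authors' log2 scale, with a median of 0.06 near raised regions. The promoter regions of genes nearest to a raised region were raised in 7 of 82 cases (8.54%), compared with 27 of all 11625 promoter regions tested (0.232%). Unlike the RNA, these promoter values come from the same H3K27ac libraries that called the raised regions, so they are not separate evidence.

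**Figure D5:**
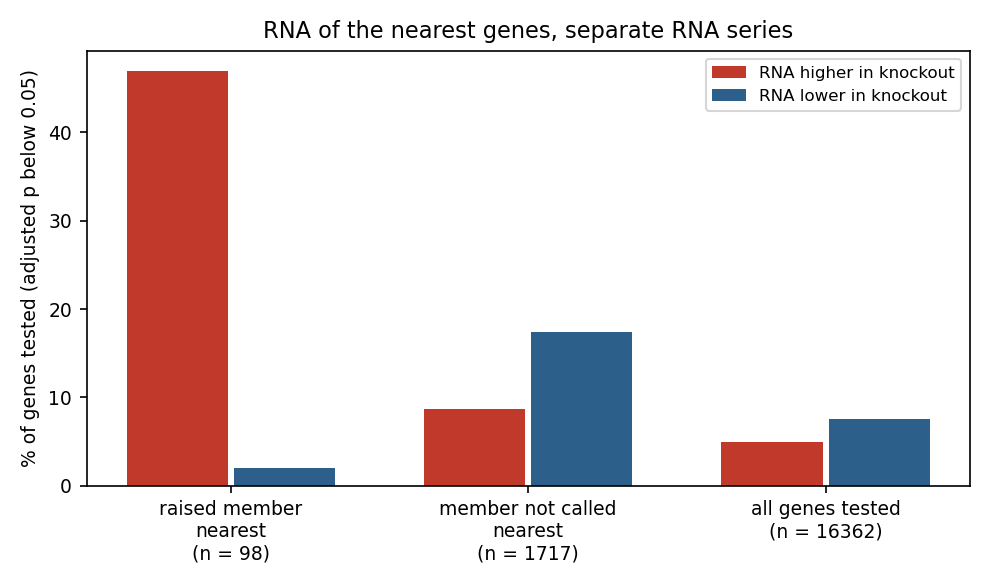
Share of genes whose RNA was higher (red) or lower (blue) in knockout muscle, among genes nearest to a raised region, nearest to a region not called, and all genes tested. Bars start at 0, n gives the genes tested, and the shares of higher genes are 46.9%, 8.68% and 4.94%.

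Chrna9, a nicotinic acetylcholine receptor subunit gene, had the largest RNA difference among the named genes, 7.13 to 7.37 (median 7.25) in Cre-negative and 8.74 to 9.0 (median 8.93) in knockout mice (1.65 ± 0.0512, SE, limma adjusted p = 3.51e-10). Both of its upstream regions were raised, by 1.48 at 6.6 kb and 1.02 at 29.6 kb, and the second kept its call only when the library left out was Ctr_6366, imKO_6348 or Ctr_1801 (limma adjusted p up to 0.134 otherwise). Neither was called without a variance trend (limma adjusted p = 0.132 and 0.18). Usp46 RNA rose from a median of 8.89 to 9.82 (limma adjusted p = 5.2e-09), Arid3b from 7.49 to 8.28 (limma adjusted p = 1.38e-06) and Spns3, a sphingolipid transporter family gene, from 5.95 to 6.57 (limma adjusted p = 5.98e-09). Vdr RNA differed by 0.11 (limma adjusted p = 0.00109). The H3K27ac difference of the Vdr region was 3.57 with a pseudocount of 1, 3.99 with 0.5 and 2.23 with 5. RNA and H3K27ac values are on different scales and from different animals, so these sizes are not compared. Rbm5 RNA differed by 0.06 and was not called (limma adjusted p = 0.381).

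Over all bound distal regions 4.84% were raised with a median of 0.15, and no gene list was tested against this share. By gene list, the IGF, insulin and mTOR list held 19 regions, with 2 raised, 0 lowered and a median of 0.54. Both were near Sesn1, a stress-induced inhibitor of mTORC1. The region in intron 5 of 9 (chr10:41901816-41902524) had 23.8, 33.0 and 38.9 in acute Cre-negative and 86.7, 52.5 and 55.4 in acute knockout libraries, and 8.2, 18 and 10.4 against 48.0, 64.0 and 55.0 in the chronic series. It was raised by 1.58 ± 0.229 (SE, limma adjusted p = 0.000256), and Sesn1 RNA by 0.25 (limma adjusted p = 0.0011). The other raised region, in intron 1, had been found in acute knockouts only. It differed by 0.76 (limma adjusted p = 0.00901) and lost its call without imKO_1802 (limma adjusted p = 0.0503) or a variance trend (0.0917). The remaining 3 of the 5 near Sesn1 differed by 0.49 to 0.84 without a call. In the same list the region in Eif4ebp1, a repressor of translation initiation, overlapped between groups (7.6, 12.2 and 85.0 against 30.1, 19.6 and 22.1 in the acute series; limma adjusted p = 0.724). Its window was raised by 1.46 (limma adjusted p = 9.56e-05) and Eif4ebp1 RNA by 0.40 (limma adjusted p = 7.75e-06).

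The FOXO and atrophy list lay near the 4.84% raised and the median of 0.15 of all bound distal regions. In this list 1 of 14 regions was raised and 0 lowered (median 0.13). It lies in intron 2 of 3 of Foxo3, a forkhead factor that drives atrophy genes (chr10:42250945-42251445), with 42.5, 123.3 and 75 against 99.4, 104.2 and 132.4 in the acute series and 53.0, 52.6 and 67.3 against 114.5, 118.6 and 97.4 in the chronic one. The acute groups overlapped, and the difference of 0.76 (limma adjusted p = 0.0267) lost its call without Ctr_6345, imKO_6349, Ctr_1795, imKO_1794, imKO_1802 or imKO_1803 (limma adjusted p up to 0.114) and without a variance trend (0.296). Its window was raised by 1.32 in the window series (limma adjusted p = 9.9e-05). A second Foxo3 region differed by 1.23 without a call (limma adjusted p = 0.252), and its window was raised by 1.40 (limma adjusted p = 0.00105). Foxo3 RNA differed by -0.03 (limma adjusted p = 0.703). The 3 regions near Fbxo32, an atrophy ubiquitin ligase gene, differed by 0.08 to 0.12 and the region near Mstn, the gene of myostatin, by 0.69 (limma adjusted p = 0.271), and none of these 4 was called.

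In the growth hormone, JAK-STAT and SOCS list 0 of 11 regions were called (median 0.11). The region 26.3 kb from Socs2, a feedback inhibitor of growth hormone signalling, had 73.0, 70.7 and 86.5 against 101.5, 84.6 and 91.5 in the acute series and 66.4, 52.6 and 83.8 against 85.6, 89.3 and 64.5 in the chronic one (0.26, limma adjusted p = 0.576). Its window was raised in the window series by 0.41 (limma adjusted p = 0.00676) and Socs2 RNA by 0.36 (limma adjusted p = 0.00343). The list of BCL6 and its corepressors had 0 of 12 regions called (median 0.24), and the region at the transcript end of Bcl6 itself differed by 0.34 (limma adjusted p = 0.497).

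Of the other lists, the slow fibre list had 1 of 3 regions raised, near Sln, which encodes the calcium pump inhibitor sarcolipin (1.63, limma adjusted p = 0.0345). The acute groups overlapped, and the call held only when the library left out was Ctr_6345, Ctr_6366, imKO_6348 or Ctr_1801 (limma adjusted p up to 0.161 otherwise). It was lost without a variance trend (0.0864) and with a pseudocount of 0.5 (0.0522). The region had been found in acute knockouts only and passed the filter on mean signal only through the knockouts. Sln RNA was higher by 0.85 (limma adjusted p = 2.28e-06). The neuromuscular synapse list had 2 of 6 raised, both near Chrna9. Fast fibre (11 regions), glycolysis (9), lipid (8), myogenic factor (6), clock (4), glucocorticoid (8) and immediate early (9) lists had 0 called in the fit over both series (limma); the interferon list had no region. The list of genes named in earlier work had 5 of 13 raised, near Spns3, Stc2, Usp46 and Vdr, and is not independent evidence.

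Of the regions with the most H3K27ac, the 5 near E030018B13Rik, Setd1b, Tex44, Glyctk and Myoz1 had differences from -0.12 to 0.10 and none was called. E030018B13Rik had the highest of these levels, 245.0 to 393.8 over the 12 libraries, with overlapping groups. Across regions, mean signal and difference had a Spearman correlation of -0.11 (n = 2645).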

How the data were processed

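H3K27ac and BCL6 chromatin immunoprecipitation and poly(A) RNA of mouse quadriceps were analysed. Per the submitters' processing notes, mm10 was used with Bowtie 1.2, STAR 2.4.0, HOMER and DESeq2 1.14.1, with no role given. Per the file headers, the authors counted tags with HOMER in merged acute H3K27ac regions, or in 1000 bp windows on BCL6 peaks, and deposited the signal scaled to 10000000 tags per library. Tags scaled back were whole within 0.1 in 100% of values, and recovered tags were used for edgeR and DESeq2 as alternatives. The deposited RNA table holds log2 values that the authors transformed by a method not given in the sources used here. The deposited BCL6 peak list gives a score of unnamed scale for 220 bp peaks.

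Signal was tested with limma 3.58.1 (R 4.3.3) on log2(signal + 1) with a variance trend, for features with a mean of at least 5, and RNA for genes above the 0.2 quantile of mean expression, with Benjamini-Hochberg adjustment over all features of a fit and calls below 0.05. A fold on this scale understates changes of low regions. Alternatives used edgeR 4.0.16 and DESeq2 1.42.0. Python 3.11.15, pandas 2.3.3, numpy 2.4.6, data.table package 1.17.8 and matplotlib 3.10.9 served for joins and plots. The code was tested on simulated data.

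Members and gene lists were chosen with earlier results of these data known. Regions named are the 5 raised and 5 lowered with the largest difference over both series (no overlap in either series, mean signal of at least 20, filled by smallest p), the same within each series, those near 12 fixed genes, the 6 with the highest BCL6 score, the 6 with the highest signal and up to 2 per gene list. Of these, 1 region with high signal is not reported here. Knockout and Cre-negative samples are separate animals by number, and groups of 3 limit precision. Oil-treated, RiboTag, nascent RNA, chronic RNA, input and single wild-type H3K27ac libraries were not used here.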

Additional observations from a re-analysis of the deposited data

Results flagged for a closer look

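Among 34 RNA groups of the named genes, 2 held a sample far from the others of its group, and chance alone marks about 5% of groups. Fbxo32 was 11.67 in Cre-negative animal P1909 on the authors' log2 scale, while the other 3 Cre-negative libraries were 11.61. Socs2 was 9.12 in knockout animal P1900, above 8.85 to 8.92 in the other 4 knockouts.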

How the results depend on the processing

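No paired analysis was possible because the knockout and Cre-negative libraries compared share no animal number. Over both series, the count of raised regions was 84 at a mean signal of at least 20 and 59 without a variance trend, and 79 to 161 with 1 library left out. It was 107 with a pseudocount of 0.5, 164 with a pseudocount of 5, 165 with quantile normalization and 136 with TMM factors. With edgeR it was 178 and with DESeq2 185. The lowered count over both series was 14 with a pseudocount of 5, 15 with quantile normalization, 1 without a variance trend, 15 with edgeR, 14 with DESeq2, 3 with peaks in the upper part of scores, and 2 to 8 with 1 library left out. In the acute series the raised count was 47 with a pseudocount of 5, 0 without a variance trend, 10 with all 12 libraries in 1 fit, 48 with edgeR and 3 to 28 with 1 library left out. The acute lowered count was 2 with a pseudocount of 5, 0 without a variance trend, 4 with edgeR and 0 to 3 with 1 library left out. In the chronic series the raised count was 82 with a pseudocount of 5, 98 with quantile normalization, 66 with TMM factors, 0 without a variance trend, 100 with all 12 libraries, 122 with edgeR, 109 with DESeq2 and 0 to 121 with 1 library left out. The chronic lowered count was 1 at a mean signal of at least 20, 7 with quantile normalization, 0 without a variance trend, 4 with all 12 libraries, 7 with edgeR, 7 with DESeq2 and 0 to 5 with 1 library left out. The chronic median was 0.278 with peaks in the upper part of scores (1421 regions) and 0.111 to 0.238 with 1 library left out. Between series edgeR and DESeq2 each called 1 region higher in the chronic series, and leaving out a library called 0 to 1. For windows the scalings and edgeR were chosen after seeing the data: raised windows were 373 with quantile normalization and 414 to 645 with 1 library left out, lowered windows were 179 with quantile normalization, 127 with TMM factors, 130 with edgeR and 18 to 52 with 1 library left out, and the median was -0.011, 0.036 and 0.036 under those settings. Regions near 0 changed sign: with 1 library left out Zfp292 ran from -0.22 to 0.09, the middle Fbxo32 region from -0.05 to 0.19, Ptpn1 from -0.05 to 0.15, Tex44 from -0.04 to 0.10 and the distant Hlf region from -0.00 to 0.51. Over the named regions, 1123 of the alternative values kept direction and call, 59 lost the call, 10 gained it (Gmpr under 5 and Prickle1 under 4 alternatives, Mef2a under 1) and 9 changed sign. The cause of these changes was not tested. The planned motif counts in wider windows were not run.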
